A study of Mus musculus with 20 samples.

Results

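Short 3′UTR rows of the AGO2 RIP-seq were examined, that is, rows of the count tables with a length of 300 bases or less and 10 or more counts in each of the 8 libraries. Of 38158 rows, each named for the 3′UTR of 1 Ensembl transcript, 14433 were this short and 1124 of them met both limits. They made up 13.7% of the 8203 rows of any length with 10 or more counts in each library, which are called the tested rows here. The members were selected on length and on the measured counts of all 8 libraries, so that a row high in only some groups could not enter, and 360 short rows with 10 or more counts in each miR292sp library had fewer in a sham library. The reverse held for 270 short rows, and 8488 short rows had no count at all. Of 10456 rows of any length that lay within a longer row of the same gene, 10455 had no count in any library. An empty row is thus not by itself a 3′UTR without RNA.

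RNA bound to AGO2 was measured in neurons of the hippocampus of adult C57BL/6 mice. An AAV5 vector with the synapsin promoter, which is active in neurons, drove a fusion of GFP and AGO2 together with a miRNA sponge, and RNA was precipitated with antibodies against GFP. A sponge is a transcript with many binding sites for 1 miRNA, here miR-292, which is not made in neural tissue and served as the control (miR292sp), miR-124 (miR124sp) or miR-125 (miR125sp). Sham-injected mice had no GFP-AGO2, so that their libraries hold what the precipitation carries over. Each of the 4 groups had 2 libraries, each from the pooled lysate of 2 hippocampi, so p-values measure only the spread between these libraries. A separate mRNA-seq of single mice compared 3 mice with GFP.miR124sp with 3 GFP mice, and 3 mice with GFP.miR125sp with 3 other GFP mice, with no precipitation. In pooled tissue, fewer cells of a type and less RNA per cell cannot be told apart.

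AGO2 is the protein at the core of the RISC. It carries a miRNA whose bases 2 to 8, the seed, pair with matching sites that lie mostly in the 3′UTR of an mRNA, and the bound mRNA is translated less and decays sooner. In hippocampal neurons miR-124 is among the most abundant miRNAs and miR-125 acts on synaptic genes. Short 3′UTRs are typical of mRNAs that every cell needs in large amounts, such as those of ribosomes and mitochondria, and offer few bases for miRNA pairing.

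The annotation (GENCODE M1 on NCBIM37, the mm9 build) placed 1098 of the 1124 short rows, and not all of them were short 3′UTRs. For 649 (57.7%) the row was a whole 3′UTR and no longer one was annotated for the gene. A further 105 (9.34%) were whole 3′UTRs of genes that also have a longer one, and 49 (4.36%) were only the first segment, in coordinates, of a spliced 3′UTR. The remaining 295 placed rows (26.2%) overlapped coding sequence of the same gene, 206 of them along their whole length, as in the transcripts annotated as subject to nonsense-mediated decay that gave 213 short rows. An exon of another gene overlapped 81 of them. Whether reads were counted by strand is not stated in the sources used here, so reads of overlapping or antisense genes cannot be told apart.

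The short rows had a median length of 160 bases against 1312 for all tested rows, and a median total of 398 counts over the 8 libraries against 1174. In 102 of them the length was under the read length of 50 bases, and the shortest had 2 bases (Hsbp1 and Ppp2r5c). At the limits, the 18 rows of 296 to 300 bases had a median relative enrichment in miR292sp over sham of 1.82, and the 22 tested rows of 301 to 305 bases 1.53. The 60 short rows whose lowest library had 10 counts had a median enrichment of 1.46, and the 78 short rows just outside, with 9 counts, 1.27.

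The sequences that pair with the sponged miRNAs are shown for the short rows in which a match to the seed lay and whose reads are given further on. Mature sequences were taken from RefSeq (GRCm38.p6), with bases 2 to 8 in capitals. Both members of the miR-125 family share their seed, and let-7 is given because it is another abundant family of neurons. Those of miR-124 and miR-292 are named only.
mmu-miR-125a-5p: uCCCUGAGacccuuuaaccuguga
mmu-miR-125b-5p: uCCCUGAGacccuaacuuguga
mmu-let-7a-5p: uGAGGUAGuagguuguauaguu

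Matches to miR-124 were searched as GTGCCTT on the strand of the gene. Capitals mark the match within up to 30 bases of the row on NCBIM37. Flot1, Dhrs1 and Hsp90ab1 were among the matched rows with the most reads, and Acrbp and Gm10116 were those that passed the test between miR124sp and miR292sp.
Flot1, chr17:35969590-35969619 (+): acctctccttgccaaatagtccGTGCCTTg
Dhrs1, chr14:56357943-56357972 (-): tgggggctctggtaggttctttGTGCCTTt
Hsp90ab1, chr17:45704846-45704875 (-): caagaatcttctatcctgtcctGTGCCTTa
Acrbp, chr6:125013224-125013253 (+): aggtgcatgatgggagctccgaGTGCCTTg
Gm10116, chr13:74544604-74544620 (+): gaggcctctGTGCCTTc

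Matches to miR-125 were searched as CTCAGGG and those to let-7 as CTACCTC, again on the strand of the gene. Uqcr11, Pop5, Dvl3 and Syp were the matched rows for miR-125 with the most reads, and the Syp row, which is mostly coding sequence, holds a pair of matches. Pld3 and Trappc1 were the rows with a let-7 match among the 10 highest in miR292sp over sham.
Uqcr11, chr10:79865812-79865841 (-): gacactggagaggtctgcaccgCTCAGGGa
Pop5, chr5:115690925-115690954 (+): catttcggatgtaactgcttagCTCAGGGg
Dvl3, chr16:20532426-20532455 (+): aggaactctgcttcagcagcccCTCAGGGc
Syp, chrX:7225854-7225883 (+): gggccccaggactcctacgggcCTCAGGGt
Syp, chrX:7225917-7225946 (+): ggcggtggcggtggctacgggcCTCAGGGc
Pld3, chr7:28317178-28317207 (-): actctccactatactcctgctgCTACCTCc
Trappc1, chr11:69139070-69139082 (+): aacatCTACCTCa

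Such matches were rare in the short rows. A miR-124 match lay in 28 of the 1098 placed rows (2.55%), against 16.1% of all tested rows, and a miR-125 match in 21 (1.91%), against 15.7%. For let-7 the numbers were 14 (1.28%) against 11.2%, and 6 (0.546%) each held a match to miR-21 (ATAAGCT, 8.22% of all tested rows) or to miR-292 (GGCACTT, 10.1%). Per kilobase the short rows and all tested rows had 0.157 and 0.110 matches to miR-124, 0.123 and 0.109 to miR-125, 0.0786 and 0.0728 to let-7, 0.0337 and 0.0518 to miR-21, and 0.0337 and 0.0653 to miR-292. At the other end of the row, the polyadenylation signal AATAAA lay in the last 40 bases of 61.3% of the short rows that were whole 3′UTRs, of 12.0% of those that overlapped coding sequence, and of 59.9% of all tested rows. With ATTAAA counted as well, the shares were 75.03%, 14.7% and 74.2%. The median GC content was 47.0% in the short rows and 44.5% in all tested rows.

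RIP libraries held 2417942 to 5072501 counts and mRNA-seq libraries 6950522 to 27833176. Rows of neuronal marker genes (9 of 10 with a row, 1 of them at 0 in each library) took 0.538 to 0.693% of the RIP counts in every group, and those of 8 microglial markers at most 0.00859%. Rows of the 8 astrocytic markers took 6.30 and 6.26% of the counts in sham, 1.50 and 1.57% in miR292sp, 4.40 and 4.36% in miR124sp and 3.47 and 3.71% in miR125sp. The astrocytic share was thus above the neuronal share in every library and highest in sham. Of these marker genes only Syp, Slc1a2 and C1qc had a short row.

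The short rows took 3.19 and 3.80% of the counts in sham, 2.41 and 2.84% in miR292sp, 2.50 and 3.52% in miR124sp, and 2.71 and 3.1% in miR125sp. Both sham libraries lay above those of miR292sp and of miR125sp, and the range of miR124sp overlapped all others. Within each group the library with the higher number held more of the short rows: their median log2 difference between its libraries was 0.19 in sham, 0.22 in miR292sp, 0.38 in miR124sp and 0.20 in miR125sp, while that of all tested rows was close to 0. No label names a batch, and the part of this difference in the results was not tested. The log2 counts of the short rows correlated less between the libraries of a group (r = 0.839 to 0.925 across 1124 rows) than those of all tested rows (r = 0.913 to 0.972 across 8203 rows). These rows share libraries and are not independent.

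**Figure D1:**
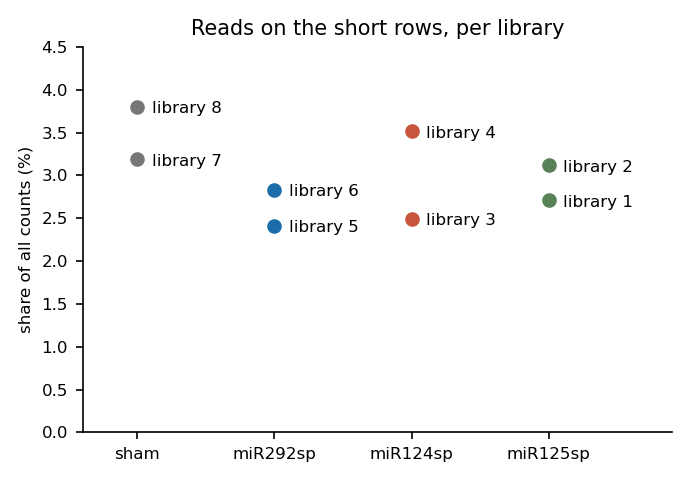
Share of all counts of a library (%, vertical axis from 0) that fell on the 1124 short rows, with 1 point for each of the 2 libraries of sham, miR292sp, miR124sp and miR125sp, numbered as in the labels. The lowest share was 2.41% in miR292sp library 5 and the highest 3.80% in sham library 8, and in every group the library with the higher number lies above the other.

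The comparison of miR292sp with sham asks which RNA was bound to GFP-AGO2. Short rows of Sdccag8, Pld3, Mrpl53 and Cox6a1 were higher in miR292sp, and those of Fahd2a and Spag5 were lower. Those of Gpi1 and Npy lay at the level of sham, as did that of Gapdh, around which the scaling was set. As a group the short rows were enriched less than longer ones. Counts scaled to the Gapdh row and the 50 rows on either side of it in the raw ratio of miR292sp to sham, the reference rows, are called normalised read counts. The median relative enrichment of the short rows was 1.55 against 2.39 for all tested rows. Of 1124 rows, 330 rose and 4 fell (edgeR quasi-likelihood, Benjamini-Hochberg adjusted p below 0.05), where 59.4% of all tested rows rose and 0.585% fell. Their median log2 fold change was 0.63, against 1.26 for all tested rows and 1.36 for those over 300 bases. The median standard error was 0.51 for the short rows and 0.40 for all tested rows, so the shares of calls differ in power. In all 334 called rows the libraries of miR292sp and sham did not overlap. With 2 libraries a group a call largely requires this, so it adds nothing to the calls. Above 4-fold, a limit for targets taken from the methods, were 111 short rows (9.88%) and 27.2% of all tested rows.

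The direction rests on the scaling. With TMM, which centres all rows, 54 short rows were called higher and 289 lower at a median of -0.73, while the median of all tested rows moved to -0.11 with 1768 called higher and 1563 lower. The gap of -0.63 between the short rows and all tested rows does not depend on the scaling, which shifts all rows nearly alike, and was -0.50 to -0.72 with 1 library left out. Among the reference rows, 30 were short rows themselves. None of them was called, which their choice by this ratio and the scaling to their mean largely fixed in advance. Without sham library 8, 207 short rows were called higher and 20 lower, and without miR292sp library 5, 212 and 1. The count of lower rows was 1 without sham library 7 and 2 without miR292sp library 6.

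**Figure D2:**
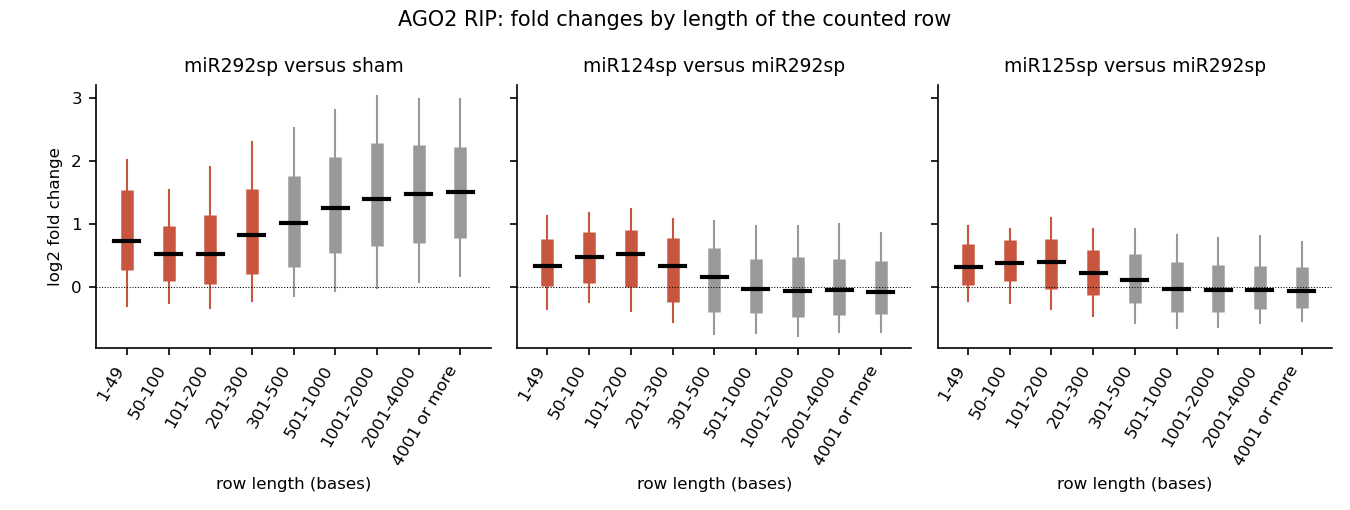
Log2 fold change (vertical axis) by length of the counted row in bases for miR292sp over sham, miR124sp over miR292sp and miR125sp over miR292sp, with the median as a black line, the range from the 25th to the 75th percentile as a box and the range from the 10th to the 90th percentile as a line (short rows orange, longer rows grey). In miR292sp over sham the medians lie at 0.52 to 0.83 up to 300 bases and rise to 1.51 above 4000 bases, and against miR292sp they lie above 0 for the short rows and near 0 for rows over 500 bases.

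Length separated rows beyond the limit as well. Median log2 fold changes of miR292sp over sham were 0.73 for the 102 rows of 1 to 49 bases, 0.53 for 196 rows of 50 to 100 bases, 0.52 for 443 rows of over 100 and up to 200 bases and 0.83 for 383 rows of 201 to 300 bases. They were 1.02 for rows of 301 to 500 bases and 1.51 above 4000 bases. Called higher were 38, 34, 106 and 152 rows of the 4 short bins (37.3, 17.3, 23.9 and 39.7%), against 59.4% of all tested rows. Across the 1124 short rows the rank correlation of length and enrichment was 0.0885, and across all 8203 tested rows 0.204, a description of rows that share libraries.

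What the annotation places at a row went with its enrichment too. The 649 whole 3′UTRs of genes with none of over 300 bases had a median of 0.72, with 216 called higher (33.3%) and 3 lower. The 105 rows of genes that also have a 3′UTR of over 300 bases had a median of 0.46, with 24 called higher (22.9%). The 49 first segments of spliced 3′UTRs stood highest at 1.07, with 22 called higher (44.9%). The 295 rows that overlapped coding sequence were lowest of the 4 placed classes at 0.38, with 63 called higher (21.4%) and 1 lower. Of all tested rows 59.4% were called higher. The difference between these classes was not tested.

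**Figure D3:**
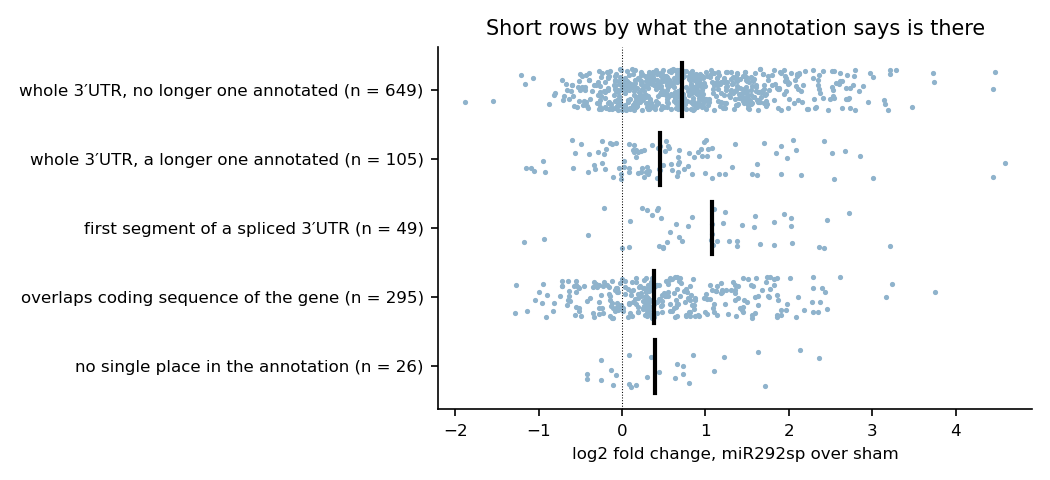
Log2 fold change of miR292sp over sham (horizontal axis) for each short row. Rows are in 5 classes by what the annotation holds there, with n and the median as a black bar. A longer 3′UTR in the class names is one of over 300 bases. The medians run from 0.38 for 295 rows that overlap coding sequence to 1.07 for 49 first segments of a spliced 3′UTR, and the values within each class spread more widely than the medians differ.

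The short row with the largest fold change was that of Sdccag8, a centrosomal protein that cilia need. Its normalised read count was 309 and 276 in sham, 7320.0 and 6818 in miR292sp, 1676 and 1698 in miR124sp, and 2392 and 2153 in miR125sp. No libraries overlapped between any groups, with sham lowest and miR292sp highest. The log2 fold change of miR292sp over sham was 4.59 ± 0.18 (SE; edgeR adjusted p = 5.88e-12). This row (chr1:178950276-178950568, +) has 293 bases, and the longest 3′UTR annotated for Sdccag8 has 811. An exon of another gene also overlaps the row, so its reads cannot be assigned to Sdccag8 alone.

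Others among the 10 largest enrichments follow, and whether these genes share a function was not tested. Pld3, a lysosomal protein of the phospholipase D family, had 149 and 149 normalised reads in sham and 1587 and 1733 in miR292sp. Trappc1, a subunit of a vesicle tethering complex, had 58 and 93.7 in sham and 661 and 767 in miR292sp, on a row that was 77.9% coding. The libraries of both were far apart, with fold changes of 3.48 ± 0.23 (edgeR adjusted p = 9.22e-10) and 3.24 ± 0.33 (1.61e-07) on the log2 scale. Tceal6, of a family named for its likeness to a transcription elongation factor, went from 62.6 and 102 to 708 and 891. Apbb3, an adaptor that binds the amyloid precursor protein, went from 39.7 and 45.4 to 493 and 644. Mdga1, a membrane-anchored protein that binds neuroligins, went from 8.4 and 9.66 to 122 and 123. The row of Mdga1 was 76.1% coding, and the gene's longest annotated 3′UTR has 4352 bases. The log2 fold changes of these rows were 3.28 ± 0.33 for Tceal6, 3.74 ± 0.36 for Apbb3 and 3.75 ± 0.51 for Mdga1, all with an edgeR adjusted p of 5.51e-06 or less. Also among the 10 were Tmem179b (4.48 ± 0.52), the predicted gene Gm10116 (4.45 ± 0.31) and D930014E17Rik (3.73 ± 0.53).

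Low counts stood behind some of these. Tmem179b had raw counts of 10 and 11 in sham, and Mdga1 11 and 10, at the limit of the choice. Sdccag8 had raw counts of 405 and 286 in sham and 5756 and 5642 in miR292sp. Called higher under TMM as well were Sdccag8, Tmem179b, Gm10116, Mdga1, Apbb3, D930014E17Rik, Pld3, Tceal6 and Trappc1.

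At the low end, 4 rows fell in miR292sp. Fahd2a, which has a domain of the fumarylacetoacetate hydrolase family, had 61.8 and 98.5 normalised reads in sham and 20.3 and 23 in miR292sp. Spag5, a protein of the mitotic spindle, had 51.9 and 64.7 in sham and 19.1 and 20.5 in miR292sp. The libraries did not overlap, and the log2 fold changes were -1.88 ± 0.51 (edgeR adjusted p = 0.0042) and -1.55 ± 0.50 (0.0124). Cfp, the complement factor properdin, and Gcfc1, a nuclear protein whose row lay wholly in coding sequence, had -1.22 ± 0.51 (0.0482) and -1.27 ± 0.51 (0.0405). Fahd2a stayed below the threshold of 0.05 without any single library, while Spag5, Cfp and Gcfc1 lost their calls without miR292sp library 5, miR292sp library 6 or sham library 7. Clu (clusterin) at -1.28 and Ppfia2 (liprin) at -1.17 did not pass, with adjusted p of 0.104 and 0.0518 in edgeR.

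Besides Sdccag8, the short rows with the most reads in total were those of Fth1, Tubb2a and Hsp90ab1. Fth1, the heavy chain of the iron store ferritin, had 4316 and 4152 normalised reads in sham, 11484 and 10389 in miR292sp, 5146 and 6638 in miR124sp and 5865 and 5846 in miR125sp. Tubb2a, a beta-tubulin of axons and dendrites, had 1127 and 1819 in sham and 3268 and 4200.4 in miR292sp. Hsp90ab1, a cytosolic chaperone, had 741 and 1159 in sham and 3568 and 3382 in miR292sp. In all of these rows both miR292sp libraries lay above both of sham. The log2 fold changes were 1.37 ± 0.14 for Fth1, 1.34 ± 0.25 for Tubb2a and 1.87 ± 0.22 for Hsp90ab1, with edgeR adjusted p of 1.68e-07, 0.00015 and 1.17e-06. With TMM those of Fth1 and Tubb2a came to -0.0022 and -0.0038. Ferritin, tubulin and ribosomal protein genes have many near-identical copies, so the counts of such rows are uncertain.

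**Figure D4:**
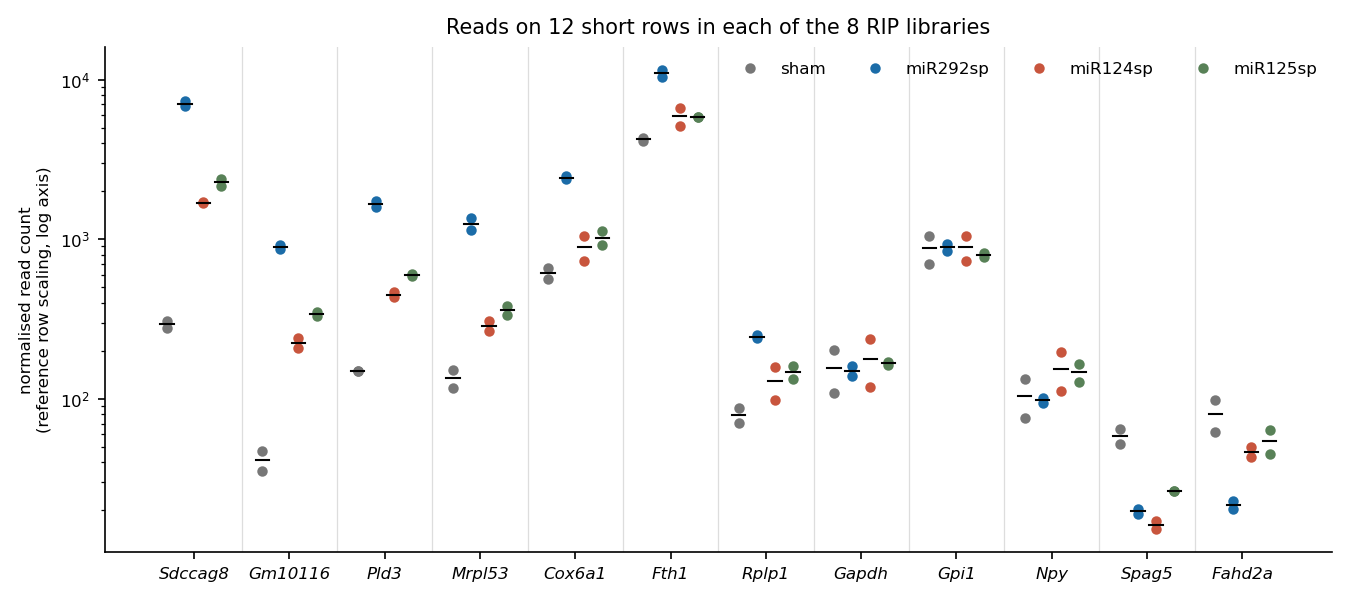
Normalised read count (log axis, scaled to the reference rows) of 12 short rows in each of the 8 RIP libraries, with 1 point for each of the 2 libraries of a group and a black line at their mean. Sdccag8, Gm10116, Pld3 and Mrpl53 stand highest in miR292sp and lowest in sham, Gapdh, Gpi1 and Npy overlap between sham and miR292sp, and Spag5 and Fahd2a have their highest means in sham.

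Among gene groups, cytosolic ribosomal proteins had 28 short rows of 47 tested rows, and 13 of the 28 rose in miR292sp over sham with a median log2 fold change of 1.03 (TMM: -0.32, with 1 called higher and none lower). Of the other 19 tested rows of the list 9 rose, with a median of 1.02, and of all tested rows 59.4% rose. Rplp1, a stalk protein of the large subunit with a 3′UTR of 40 bases, had 71 and 87.9 normalised reads in sham and 252 and 239 in miR292sp. Rpl8 had 64.9 and 74.4 in sham and 196 and 297 in miR292sp. Both rows were higher in each miR292sp library than in either of sham, at 1.63 ± 0.38 and 1.82 ± 0.44 (edgeR adjusted p = 0.00126 and 0.00159). Rps18 had 1.39 ± 0.42 (0.00861) on a row within coding sequence, and Rpl32 0.91 with an adjusted p of 0.0779. Without sham library 8, 6 of the 28 were called higher.

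Oxidative phosphorylation, the respiratory chain and ATP synthase of mitochondria, had 47 short rows of 68 tested rows. Of these, 9 rose and none fell, at a median of 0.43 (TMM: -0.92, 1 higher and 16 lower). The list's other tested rows had a median of 0.74, and 9 of them rose. Cox6a1, a subunit of cytochrome c oxidase, had 561 and 664 normalised reads in sham, 2494 and 2376 in miR292sp, 735 and 1047 in miR124sp and 917 and 1123 in miR125sp. All libraries with GFP-AGO2 lay above those of sham. The fold change was 1.99 ± 0.21 (edgeR adjusted p = 3.3e-07) for Cox6a1, 1.55 ± 0.24 (2.14e-05) for Cox8a of the same complex, and 1.37 ± 0.44 (0.0116) for Uqcr11 of the cytochrome bc1 complex. Atp5b, the catalytic subunit of the ATP synthase, had 564 and 695 in sham and 729 and 949.8 in miR292sp, and did not pass at 0.42 ± 0.27 (adjusted p = 0.196). Under TMM its value was -0.94.

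Mitochondrial ribosomal proteins had 26 short rows of 53, of which 7 rose and none fell at a median of 0.69 (TMM: -0.67, 2 higher and 8 lower). The list's other tested rows had a median of 1.29, and 18 of them rose. Mrpl53 had 118 and 152 normalised reads in sham, 1137 and 1356 in miR292sp, 265 and 306 in miR124sp and 336 and 383 in miR125sp. Its groups did not overlap, and the fold change was 3.21 ± 0.27 (edgeR adjusted p = 1.37e-08). The whole row of Mrpl53 is also overlapped by exons of Ccdc142. Mrpl34 had 2.60 ± 0.45 (7.17e-05).

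Proteasome subunits had 21 short rows of 36 with 1 called higher at a median of 0.54 (TMM: -0.81), and Psma7 and Psmb2, of the core particle, had 0.23 and 0.63 with adjusted p of 0.595 and 0.176. Translation factors had 9 of 43 with 2 called higher at 0.33 (TMM: -1.004), among them Eef1a1, which carries aminoacyl-tRNA to the ribosome, at 0.72 ± 0.23 (edgeR adjusted p = 0.0107). Splicing factors had 14 of 58 with 1 called higher at 0.53, zinc finger protein genes 14 of 239 with 4 at 0.34, and solute carriers 7 of 157 with 2 at 0.63. With TMM the medians of these 3 lists were -0.82, -1.03 and -0.73. Small GTPases had 6 of 79 with 3 called higher at 1.17 (TMM: -0.18), among them Arl2, a regulator of tubulin folding, at 1.74 ± 0.32 (0.000124). RNA polymerase subunits (4 short rows of 20), histones (3 of 9), V-ATPase subunits (2 of 15) and ubiquitin-conjugating enzymes (2 of 22) had 1 higher call each, and G protein subunits (3 of 28) had 2. None of these lists had a lower call among its short rows with the reference rows, and no gene of the miRNA pathway, of 10 tested rows, had a short one. Of the lists' other tested rows, 7 rose for the proteasome, 25 each for translation and splicing factors and 105 for zinc finger protein genes. For solute carriers 94 rose, for small GTPases 52, for RNA polymerase subunits 9 and for histones 4. V-ATPase subunits had 8, ubiquitin-conjugating enzymes 16 and G protein subunits 19. Of all tested rows 59.4% rose.

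Glycolysis had 4 short rows of 11, none called, at a median of -0.01 (TMM: -1.36, 3 lower), with values on both sides of 0. Of the list's other tested rows 4 rose. Gpi1, glucose-6-phosphate isomerase, had 702 and 1048 normalised reads in sham, 843 and 939 in miR292sp, 735 and 1048 in miR124sp and 777 and 819.8 in miR125sp. The groups overlapped, and the fold change of miR292sp over sham was 0.03 (edgeR adjusted p = 0.932). Gapdh, which defines the scaling, had 108 and 203 in sham and 139 and 161 in miR292sp, and was at -0.05 ± 0.41. Ldhb, a lactate dehydrogenase subunit, had 0.74 (adjusted p = 0.0752), and Pfkp, a phosphofructokinase, -0.99 (0.152).

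Of 21 tested rows for calcium binding and postsynaptic signalling 3 (14.3%) were short, near the 13.7% of all tested rows. All 3 rose with the reference rows (median 1.36), as did 15 of the list's other tested rows. None of the 3 was called with TMM (median -0.0095). Homer1, a postsynaptic scaffold, had 16 and 30.9 normalised reads in sham and 128 and 100.3 in miR292sp. Dlg4 (PSD-95) had 276 and 269 in sham and 626 and 769.7 in miR292sp, and Pcp4, which binds calmodulin, 212 and 241 against 422 and 457. The fold changes were 2.29 ± 0.50 for Homer1, 1.36 ± 0.26 for Dlg4 and 0.95 ± 0.30 for Pcp4 (edgeR adjusted p = 0.000748, 0.000237 and 0.0105). The row of Homer1 was 63.1% coding and that of Dlg4 wholly so, and Pcp4 lost its call without sham library 8 or miR292sp library 5. Neuropeptides had 3 short rows of 10 tested rows, and 1 of them rose, at a median of 0.48. Of the list's other tested rows 3 rose (median 1.23), where 59.4% of all tested rows rose. Npy had 75.6 and 132 in sham and 94.1 and 102 in miR292sp, at -0.08 (edgeR adjusted p = 0.881). Mean normalised reads in sham and miR292sp were 367 and 512 for Sst and 67.4 and 154 for Pcsk1n.

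The short rows of marker genes (Syp, Slc1a2 and C1qc) gave no call against sham. Syp, synaptophysin of synaptic vesicles, was at 0.31 (edgeR adjusted p = 0.435) on a row that was 97.0% coding. Of the other tested rows of neuronal markers 6 rose and 0 fell (median 1.62), where 59.4% of all tested rows rose. For synaptic vesicle release 20 of the other tested rows rose and 0 fell (1.85). Slc1a2, the glutamate transporter of astrocytes, was at -0.93 (0.116), with 57.2 and 83.1 normalised reads in sham and 40.7 and 32.6 in miR292sp on a row of 35 bases. C1qc, a complement component of microglia, was at 0.38 (0.619). Slc1a2 is itself among the 8 astrocytic markers whose share is given above, so its value and that share are not independent. Of the other tested rows of these markers 2 rose, 2 fell and 3 did not pass, with a median of -0.36. The part of the astrocytic share in these values was not tested.

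Of the 28 short rows with a seed match for miR-124, 17 were called higher in miR292sp over sham, where 59.4% of all tested rows and 956 of the 1301 tested rows of any length with such a match were. Their median log2 fold change was 1.38, against 0.62 for short rows without a match. Among all tested rows the medians were 1.72 and 1.18. Flot1, a scaffold of membrane microdomains, had 99.2 and 139 normalised reads in sham and 652 and 731 in miR292sp, and Dhrs1, a short-chain dehydrogenase, 102 and 84 against 485 and 587. Both were clear of sham in both libraries, at 2.54 ± 0.29 and 2.52 ± 0.32 (edgeR adjusted p = 8.51e-07 and 2.24e-06). Short rows with a miR-125 match had a median of 0.92 with 8 of 21 called higher, and those without 0.63. For let-7 the medians were 1.14, with 7 of 14 called higher, and 0.63. The 6 rows with a miR-292 match had a median of 0.34, and the 6 with a miR-21 match 0.54. The difference between rows with and without a match was not tested.

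Of the rows matched to miR-125, Dvl3, a Dishevelled protein of Wnt signalling, had 166 and 105 normalised reads in sham and 412 and 476 in miR292sp. Pop5, a subunit of RNase P, had a row of 240 bases with 91.6 and 102 in sham and 279 and 294 in miR292sp. Both rose, at 1.71 ± 0.35 and 1.56 ± 0.36 (edgeR adjusted p = 0.00036 and 0.00122). A second row of Pop5, of 5 bases and without a match, had 1.63 ± 0.44 (0.00395).

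The comparison of miR124sp with miR292sp asks what the miR-124 sponge changed in AGO2 binding. Relative to all rows (TMM scaling), the short rows of Gtf2b, Grm7, Npy, Syp and Gpi1 rose and those of Sdccag8, Mrpl53, Pld3 and Gm10116 fell. In all, 25 short rows rose and 6 fell, where 5.1% of all tested rows rose and 3.46% fell, and 211 short rows had an unadjusted p below 0.05. Their median log2 fold change was 0.45 and that of all tested rows 0.04. Of the 25, 12 overlapped coding sequence, 9 of them wholly. With the reference rows the medians were -0.55 for the short rows and -0.97 for all tested rows. Of the short rows 2 were then called higher and 208 lower, where 17 of all 8203 tested rows were higher and 4105 lower. The short rows lay 0.41 above all tested rows in the median. This gap was 0.19 without miR124sp library 4, 0.28 without miR292sp library 5, 0.50 without miR292sp library 6 and 0.56 without miR124sp library 3. The calls hung on single libraries. Without miR292sp library 5 or 6, 0 rose, with 94 and 125 at an unadjusted p below 0.05, and without miR124sp library 4, 1 did. Without miR124sp library 3, 20 rose, and in each of these 4 cases 1 row fell. DESeq2 called 41 higher and 13 lower, where 527 of all tested rows were higher and 613 lower.

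Gtf2b, the general transcription factor TFIIB, had the largest rise. Its TMM-normalised count was 10.2 and 15.9 in miR292sp, 54.4 and 100.4 in miR124sp, and 44.7 and 20.2 in miR125sp. Both miR124sp libraries lay above both of miR292sp, at 2.55 ± 0.60 (edgeR adjusted p = 0.0166). Acrbp, a protein of the sperm acrosome, had 9.47 and 11.6 in miR292sp and 52.3 and 51.4 in miR124sp, at 2.29 ± 0.51 (0.0139). Fahd2a had 11.7 and 13.7 in miR292sp and 53.4 and 56.2 in miR124sp, at 2.10 ± 0.50 (0.0183). This row was also called lower in miR292sp than in sham, and both comparisons share the miR292sp libraries. Its mean with the reference rows was 46.6 in miR124sp and 80.2 in sham. Gtf2b, Acrbp and Fahd2a stood under 20 TMM-normalised counts in each miR292sp library. Others of this size were Isg20l2, Vps13c, Son and Vps16, at 1.95 ± 0.52, 1.95 ± 0.58, 1.94 ± 0.54 and 1.80 ± 0.50, and the rows of Isg20l2, Son and Vps16 lay wholly in coding sequence.

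Rows with more reads, some of them of neuronal genes, were also among those that rose. Grm7, a presynaptic glutamate receptor, had 55.3 and 53.5 in miR292sp and 169.6 and 195 in miR124sp on a row within coding sequence, at 1.74 ± 0.37 (edgeR adjusted p = 0.0105). Npy had 53.9 and 60.8 in miR292sp, 139 and 219 in miR124sp and 126.5 and 171 in miR125sp, at 1.64 ± 0.40 (0.0197). Syp had 218 and 318 in miR292sp and 412 and 866 in miR124sp, at 1.25 ± 0.31 (0.0201). The miR124sp libraries of Syp lay further apart than those of miR292sp, and without library 4 its fold change was 0.62. Gpi1 had 483 and 562 in miR292sp and 912 and 1173 in miR124sp, at 1.00 ± 0.22 (0.0123), and came to 0.00022 with the reference rows. Apart from Acrbp and Gtf2b, the rows named here as higher lost their calls with that scaling.

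The rows that fell were highly enriched over sham, and both comparisons share the miR292sp libraries, so their values are given side by side without further reading. Sdccag8 had TMM-normalised counts of 4192 and 4082 in miR292sp, 2078 and 1899.6 in miR124sp and 2359 and 2211 in miR125sp. Mrpl53 had 651 and 812 in miR292sp, 329 and 342 in miR124sp and 332 and 393 in miR125sp. In both, the miR292sp libraries lay above all others. The fold changes of miR124sp over miR292sp were -1.06 ± 0.17 for Sdccag8, -1.13 ± 0.25 for Mrpl53, -0.87 ± 0.22 for Pld3 and -0.98 ± 0.27 for Gm10116 (edgeR adjusted p = 0.00189, 0.0122, 0.0225 and 0.0336). The call of Sdccag8 held without each library in turn, and the others did not hold throughout.

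Across the 28 short rows with a miR-124 match, the median of miR124sp over miR292sp was -0.09, and across those without 0.45. Acrbp was the 1 matched row that rose and Gm10116 the 1 that fell. Among all tested rows the medians were -0.14 with a match and 0.07 without. These medians were not tested against each other.

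With the miR-125 sponge, compared with the same miR292sp libraries, Fahd2a rose and Sdccag8 and Mrpl53 fell, and no other short row passed. That is 1 row higher and 2 lower of 1124, where 1.18% of all tested rows rose and 0.232% fell, with 128 short rows at an unadjusted p below 0.05. Fahd2a had TMM-normalised counts of 11.7 and 13.7 in miR292sp and 44.7 and 65.7 in miR125sp, at 2.11 ± 0.50 (edgeR adjusted p = 0.044). Its mean with the reference rows was 54.7 in miR125sp and 80.2 in sham. Like Sdccag8 and Mrpl53, it was also called in miR292sp over sham, which shares the miR292sp libraries. Sdccag8 was at -0.86 ± 0.17 (0.0187) and Mrpl53 at -1.01 ± 0.25 (0.0474). The libraries of these rows did not overlap between the groups. Without any 1 of the 4 libraries none of these calls held, and DESeq2 called 5 higher and 3 lower. The median of the short rows was 0.34, and that of all tested rows 0.03. With the reference rows it was -0.44, with 0 higher and 105 lower, against -0.75 for all 8203 tested rows, of which 18 were higher and 3132 lower. DESeq2 called 196 of all tested rows higher and 178 lower. Across the 21 short rows with a miR-125 match the median was 0.17, and across those without 0.34.

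The relative enrichment over sham was closer to 1 with these sponges. Its median over the short rows was 1.11 in miR124sp and 1.21 in miR125sp, and over all tested rows 1.29 and 1.47. Above 4-fold were 6 short rows (0.534%) in miR124sp and 16 (1.42%) in miR125sp, against 2.8% and 6.18% of all tested rows. The sham libraries are shared by these values.

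Between miR124sp and miR125sp no short row was called by edgeR, where 0.0% of all tested rows were called higher and 0.0122% lower. The smallest adjusted p was 0.786, with 23 short rows at an unadjusted p below 0.05, and DESeq2 called none with 18. The median log2 difference was 0.05 for the short rows and 0.01 for all tested rows. Npy, for one, had 139 and 219 TMM-normalised counts in miR124sp and 126.5 and 171 in miR125sp, which overlap.

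The mRNA-seq of the same tissue asks whether the mRNA of these genes changed with a sponge. Its counts were per RefSeq transcript and were summed per gene. With miR124sp, genes of short rows fell more often than they rose, and ribosomal and mitochondrial genes such as Rpl32, Rplp1, Uqcr11 and Mrpl53 were among those that fell. Of 900 genes of short rows, 74 rose and 233 fell, where 12.6% of all 12971 genes rose and 10.7% fell. The median log2 fold change was -0.09. These falls were measured against the 3 GFP mice of the miR-124 experiment, which stood apart from all other mice for these genes. Against the 3 GFP mice of the miR-125 experiment, an alternative chosen after the data were seen, 28 rose and 17 fell, where 2.97% of all genes rose and 2.73% fell. Experiment and control mice cannot be told apart across these groups.

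Cytosolic ribosomal protein genes with short rows gave 22 lower calls of 24 and none higher, at a median of -0.54, and the other 53 tested genes of the list 48. Oxidative phosphorylation gave 31 lower of 40 at -0.40, mitochondrial ribosomal proteins 19 of 26 at -0.40 and proteasome subunits 9 of 19 at -0.26, none with a higher call. Markers of cell types moved in the same comparison. Apart from genes of short rows, 5 of 7 astrocytic markers fell (median -0.34) and 5 of 7 microglial markers fell (-0.27), while 5 of 7 oligodendrocytic markers rose (0.51) and of 8 neuronal markers 4 rose and 1 fell (0.26). These markers are given only against the GFP mice of the miR-124 experiment, which stood apart for the lists, and not against the other GFP mice. Their part in the changes of the lists was not tested. With the other GFP mice as controls, no gene of a short row was called in the 4 lists. Between the 2 sets of GFP mice, those of the miR-124 experiment were higher for 24 of 24 cytosolic ribosomal protein genes (median 0.64), 33 of 40 for oxidative phosphorylation (0.46), 23 of 26 for mitochondrial ribosomal proteins (0.36) and 10 of 19 for the proteasome (0.23). For genes of short rows together 343 of 902 were higher and 124 lower, where 16.3% of all genes were called in each direction. Between miR124sp and miR125sp mice, across the experiments, 7 genes of short rows were higher and 5 lower (1.82% and 1.28% of all genes), and none of the 4 lists.

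**Figure D5:**
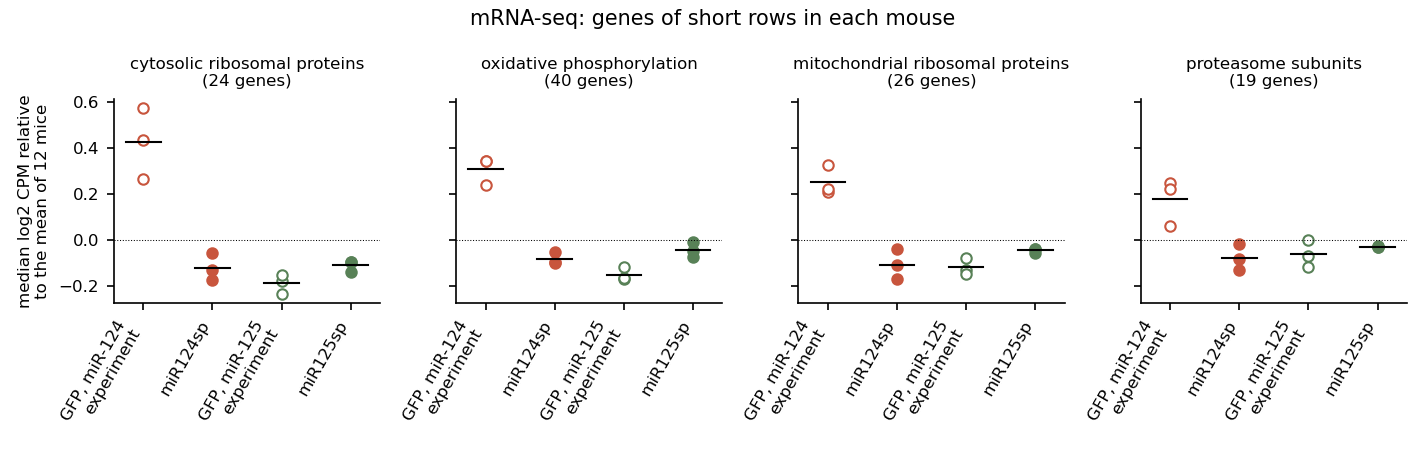
Median log2 CPM of genes of short rows, relative to the mean of the 12 mice (vertical axis), with 1 point for each mouse in the mRNA-seq and a black line at the mean of the 3 mice of a group, for cytosolic ribosomal proteins (24 genes), oxidative phosphorylation (40), mitochondrial ribosomal proteins (26) and proteasome subunits (19). For the ribosomal proteins the GFP mice of the miR-124 experiment stand at 0.27 to 0.57 and all 9 other mice at -0.23 to -0.06.

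Rpl32, of the large ribosomal subunit, had 203, 221 and 174 CPM in the GFP mice of the miR-124 experiment and 116, 118 and 125 with miR124sp. The GFP mice of the miR-125 experiment had 118, 135 and 119 and those with miR125sp 133, 131 and 132. Only the first of these groups stood apart. The log2 fold change of miR124sp over GFP was -0.73 ± 0.09 (edgeR adjusted p = 0.00368), and -0.05 (0.762) against the other GFP mice. Mrpl53 had 41.3, 44.7 and 42.4 CPM in GFP and 26.2, 25.4 and 32 with miR124sp, while the other GFP mice had 29.6, 25 and 29.1. Its fold change was -0.61 ± 0.10 (0.00467), and -0.02 against the latter. Rplp1, Cox6a1 and Uqcr11 fell by 0.58, 0.32 and 0.46 on the log2 scale, and had 0.12, 0.25 and 0.18 against the other GFP mice.

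A few genes of short rows were lower with miR124sp against both sets of GFP mice. Fabp7, the brain fatty acid binding protein of glia and progenitors, had 64.7, 65.3 and 48.9 CPM in GFP, 22.6, 27.4 and 31.1 with miR124sp, and 37, 42.5 and 50.8 in the other GFP mice. All miR124sp mice lay below all GFP mice, at -1.14 ± 0.14 (edgeR adjusted p = 0.00368) and -0.71 (0.0174) against the other set. Hap1, which binds huntingtin and takes part in axonal transport, had 28.7, 27.5 and 34.6 in GFP, 11, 13.5 and 18.6 with miR124sp, and 19.5, 20.8 and 22.3 in the other GFP mice. Its fold changes were -1.07 ± 0.17 (0.00476) and -0.56 (0.048). Crym, which binds thyroid hormone, had 334, 288 and 333 in GFP, 153, 149 and 253 with miR124sp and 303, 293 and 269 in the other GFP mice. The fold changes were -0.77 ± 0.18 (0.016) and -0.64 (0.0289), and without GFP mouse 15, or miR124sp mouse 14 or 2, Crym did not pass. S100a10, the partner of annexin A2, was at -0.83 ± 0.13 (0.00449) against its own GFP mice and -0.17 (0.503) against the others. Cpne6, a copine that binds membranes in response to calcium, and Dab1, the adaptor of reelin signalling, were at -0.91 ± 0.29 (0.0475) and -0.86 ± 0.27 (0.0494), and -0.13 and 0.028 against the others. Dab1 lost its call without any 1 of the 6 mice, Cpne6 without GFP mouse 15 or 20 or miR124sp mouse 14 or 2, and Cox6a1 without the same 4. Fth1 had at most 0.174 CPM and Gapdh at most 0.35 CPM in this table, where reads on near-identical copies or several transcripts may not have been counted, so their mRNA levels are not known from it.

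The count of calls in this comparison also hung on single mice. Without GFP mouse 15 there were 12 higher and 120 lower, without miR124sp mouse 14 there were 23 and 145, and without miR124sp mouse 2 there were 17 and 116.

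With miR125sp, only Ylpm1 and B2m fell among 896 genes of short rows and none rose, where 0.0554% of all genes rose and 0.15% fell. An unadjusted p below 0.05 was reached by 142 of the 896, and DESeq2 called 8 higher and 5 lower. Ylpm1, a nuclear protein with a motif of tyrosine, leucine and proline repeats, had 251, 244 and 231 CPM in GFP and 202, 203 and 201 with miR125sp. B2m, the light chain of MHC class I, had 133, 131 and 149 in GFP and 98.5, 106 and 110 with miR125sp. The groups did not overlap in either gene, and the log2 fold changes were -0.26 ± 0.04 (edgeR adjusted p = 0.0422) and -0.41 ± 0.06 (0.0329). Both lost their calls without any 1 mouse other than GFP mouse 15, and 2 genes rose without that mouse. Against the GFP mice of the miR-124 experiment, chosen after the data were seen, Ylpm1 was at 0.35 and B2m at -0.28, with 115 genes of short rows higher and 319 lower, where 16.7% of all genes rose and 18.6% fell.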

How the data were processed

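RIP-seq counts of 8 libraries and mRNA-seq counts of 12 mice were used. The authors made poly-A libraries, mapped reads of 50 bases and deposited raw counts as whole numbers, per 3′UTR of an Ensembl transcript for the RIP-seq and per RefSeq transcript for the mRNA-seq. The methods name mm9, and the submitters' processing notes name STAR, edgeR and mm10. No source used here names the counting program. No column of per-sample values was left out (0).

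Rows with fewer than 10 counts in any RIP library were left out, and the other 8203 were fitted together in edgeR 4.0.16 (limma 3.58.1, R 4.3.3) with the quasi-likelihood test and Benjamini-Hochberg adjustment over all of them, at a threshold of 0.05. miR292sp was compared with sham after scaling to 101 reference rows, namely the Gapdh row and the 50 on either side of it in order of the raw ratio, and sponges with each other after TMM. Relative enrichment is the mean scaled count of a group divided by that of sham. mRNA-seq counts were summed for 23781 genes (98.7% of 32850 transcripts had a symbol) and tested in edgeR with filterByExpr and TMM on the 6 mice of each experiment. CPM were TMM-normalised over 12 mice. Values after ± are standard errors of the fit. Alternatives were the other scaling, a filter of 1 count in any library, DESeq2 1.42.0, leaving out each library and, added later, exchanged GFP controls. The fit was tested on simulated data. Python 3.11.15, pandas 2.3.3, numpy 2.4.6, scipy 1.17.1 and matplotlib 3.10.9 were used.

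The short rows, gene lists and named genes were chosen with earlier results of these data known. Named were the 10 highest and 6 lowest rows in miR292sp over sham, the 8 with the largest called change in each comparison of sponges, rows with a seed match that were called or had the most reads, up to 4 rows of each list with the most reads, the 10 with the most reads per kilobase, up to 6 genes called in each mRNA comparison, Gapdh, and rows at the limits. One of the 10 highest rows is not reported here. Ccdc142 is named because it overlaps Mrpl53. Counts limit the precision: short rows with 10 counts in a library carry a large counting error.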

Additional observations from a re-analysis of the deposited data

How the results depend on the processing

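The gap between the short rows and all tested rows in miR292sp over sham was -0.50 to -0.72 with 1 library left out, and scalings, which shift all rows nearly alike, cannot change it. With TMM 54 short rows were higher and 289 lower at a median of -0.73 (all tested rows: 1768 and 1563). DESeq2 gave 56 and 262 at -0.70 (all tested rows: 1872 and 1543). With a filter of 1 count in any library 1 was lower. Leaving out 1 library gave 207 to 368 higher, 1 to 20 lower and medians of 0.38 to 0.92. For miR124sp over miR292sp the reference rows gave 2 higher and 208 lower at -0.55 (all tested rows: 17 and 4105). The loose filter gave 12 and 13 at a median of 0.26 (all tested rows: 252 and 686), and DESeq2 41 and 13 (527 and 613). Leaving out 1 library gave 0 to 20 higher, 1 to 1 lower and medians of 0.18 to 0.59. For miR125sp over miR292sp the reference rows gave 0 higher and 105 lower at -0.44 (all tested rows: 18 and 3132). The loose filter gave 2 and 3 (all tested rows: 95 and 155), and DESeq2 5 and 3 (196 and 178). Leaving out 1 library gave 0 to 0 higher, 0 to 0 lower and medians of 0.22 to 0.46. For the mRNA of miR124sp the other GFP mice gave 28 higher and 17 lower, and leaving out 1 mouse 12 to 98 higher and 116 to 261 lower. For the mRNA of miR125sp the loose filter gave 9 higher and 5 lower, DESeq2 8 and 5 and the other GFP mice 115 and 319, and leaving out 1 mouse 0 to 2 higher and 0 to 2 lower. Signs turned with TMM for Fth1 (-0.0022), Tubb2a (-0.0038), Atp5b (-0.94), Eef1a1 (-0.65), Psma7 (-1.13), Gpi1 (-1.32), Syp (-1.04), Dlg4 (-0.0095) and Pcp4 (-0.41). They turned with DESeq2 for Atp5b (-0.92), Eef1a1 (-0.62), Psma7 (-1.11), Gpi1 (-1.30), Syp (-1.02) and Pcp4 (-0.38), and with the other GFP mice for Rplp1 (0.12), Cox6a1 (0.25), Uqcr11 (0.18), Dab1 (0.028) and Ylpm1 (0.35). The causes were not tested. TMM and DESeq2 centre all rows by construction. No paired analysis was possible because the groups compared share fewer than 2 replicate numbers. With 2 libraries a group, a left-out library leaves a lone one that is assumed to vary like the other groups. Rows with few counts limit what a small fold change can show.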
